A study of Mus musculus with 7 samples.

Results

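The 3 vehicle-treated tumours of a study of 7 are described here, each as 1 RNA library, at baseline and with no treatment contrast. They were chosen by their label alone, from no measured value. All 3 grew from MTOs, as the labels name the cells, of the genotype sgPrkci/Prkcz, which carries guides against the genes of both atypical protein kinase C (aPKC) isoforms. The samples used here include no aPKC-intact tumour, so nothing below is a comparison with one. The cells had been kept in advanced DMEM/F12 medium with B-27 and EGF. For each mouse 500000 cells in 100 µL with 30% Matrigel, a basement membrane gel, were injected under the skin of the right flank of a C57BL/6 animal aged 7 weeks. Vehicle was given 2 times a week for 3 weeks, starting on day 15, and the labelled age of the animals was 13 weeks. The site is subcutaneous, the labels do not say whether 1 or several edited clones were injected, and they name no sex and no other allele. RNA was read from the 3′ ends of transcripts. Tumour numbers 14, 16 and 33 are those of the labels and carry no order, and a series of 3 values is always given for tumours 14, 16 and 33 in that sequence.

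The aPKC isoforms, PKCζ and PKCλ/ι, act with the scaffolds Par3 and Par6 to set the polarity of epithelial cells. In the intestine their loss is known from mouse work to go with serrated tumours that have a dense, matrix-rich stroma. A flank tumour is a mixture of grafted epithelial cells with the fibroblasts, vessels and leukocytes of the host, and a dissected one can hold skin, fat or muscle from around it. All reads are mouse, so those of grafted and of host cells were counted together. A low level of a cell type's genes can mean fewer such cells or less RNA per cell, and these cannot be told apart in bulk RNA.

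The libraries held 4264385, 4204388 and 4304108 reads. Between 18490 and 18658 genes had at least 1 read in each, 16070 genes had reads in all 3 tumours, and 14498 reached a mean of 1 CPM (counts per 1000000 reads of the library total). A gene without reads could still have been present at up to 0.704, 0.714 and 0.697 CPM, the level of 3 reads, which covers counting error only. At 5 CPM a library held about 21.3 reads of a gene, a counting error of 21.7%, and at 100 CPM the error was 4.85%. Each pair of libraries differed well beyond counting error, with a chi-square statistic, divided by its degrees of freedom, of 13.9 for tumours 14 and 16, 7.89 for 14 and 33 and 16.3 for 16 and 33. None was thus a copy of another. The labels give 3 separate tumours and do not say whether each had its own host, so the spread below is that between samples.

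With 1 library per tumour there is no test between tumours. A gene is called here when its highest tumour had at least 2 times the CPM of its lowest and its mean was at least 5 CPM. This held for 1322 of 11128 genes, 11.9%, which is the background against which every count below is read. The count was 401 without tumour 16, 720 without tumour 33 and 1021 without tumour 14. By the tumour that was highest, 1.97% of genes were called with tumour 14 on top, 5.09% with tumour 16 and 4.83% with tumour 33. By the tumour that was lowest, 3.39% were called with tumour 14 at the bottom, 5.27% with tumour 16 and 3.23% with tumour 33. With no fold required, tumours 14, 16 and 33 were highest in 25.3%, 41.0% and 33.8% of genes and lowest in 30.2%, 36.3% and 33.5%. Over all 11128 genes the median ratio of highest to lowest tumour was 1.31. Named genes follow the rule given with the methods. The gene families, and any gene named beyond that rule, in a list or not, were chosen after their values were seen.

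The RNA of the tumours was concentrated in few genes. The 53 genes above 1000 CPM held 24.9% of reads, and the 100 most abundant genes held 28.7%, 28.9% and 29.0% (28.8% ± 0.132, SD, n = 3). Counting error on each of these shares was small, with a 95% Clopper-Pearson interval of 28.7% to 28.8% in tumour 14. The first 50% of reads lay in 637, 659 and 640 genes, and 90% of reads needed 5264, 5426 and 5367 genes. Protein-coding genes took 86.8%, 86.3% and 86.8% of reads.

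The first ranks went to RNAs that are not typical messengers. Gm42418, an annotated long non-coding RNA at chr17:39846958-39848788 (GRCm38) that overlaps a ribosomal RNA repeat, stood first with 38919, 51598 and 45701 CPM. Mitochondrially encoded RNA made up 11.8%, 11.4% and 10.97% of counted reads (11.4% ± 0.434, SD, n = 3). Some mitochondrial messengers were listed at 0, as given below, so this share covers only what was counted. It was led by the ribosomal RNA mt-Rnr2 and by mt-Nd4, a subunit of respiratory complex I, with 24956, 25249 and 25013 CPM. Malat1, a nuclear non-coding RNA, followed with 16731, 13437 and 16345 CPM. These 4 differed between the tumours by at most 1.33-fold.

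Below them came a mixture of epithelial, matrix and housekeeping genes. S100a6, a calcium-binding protein, was the nuclear messenger with the most counted reads, at 5066, 4859 and 5271 CPM. Next stood Clu, clusterin, a secreted chaperone that marks regenerating epithelium in the mouse intestine, with 4750.0, 2878 and 4391 CPM. Then followed Actb, the collagen chain Col1a2 and B2m, the light chain of MHC class I. Fn1, fibronectin, ranked 14 with 2907, 1589 and 3782 CPM, and Ctnnb1, β-catenin, ranked 17 with 2402, 1652 and 2375 CPM. Cd44, the main cell-surface receptor for hyaluronan, ranked 19 and was nearly level at 1956, 1832 and 1839 CPM. The adhesion proteins Cdh1 and Epcam ranked 22 and 24, and Krt7, a keratin of simple ductal epithelia, ranked 33. Thus 3 epithelial surface or filament genes and 3 fibrillar collagen chains shared the first 40 ranks.

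**Figure D1:**
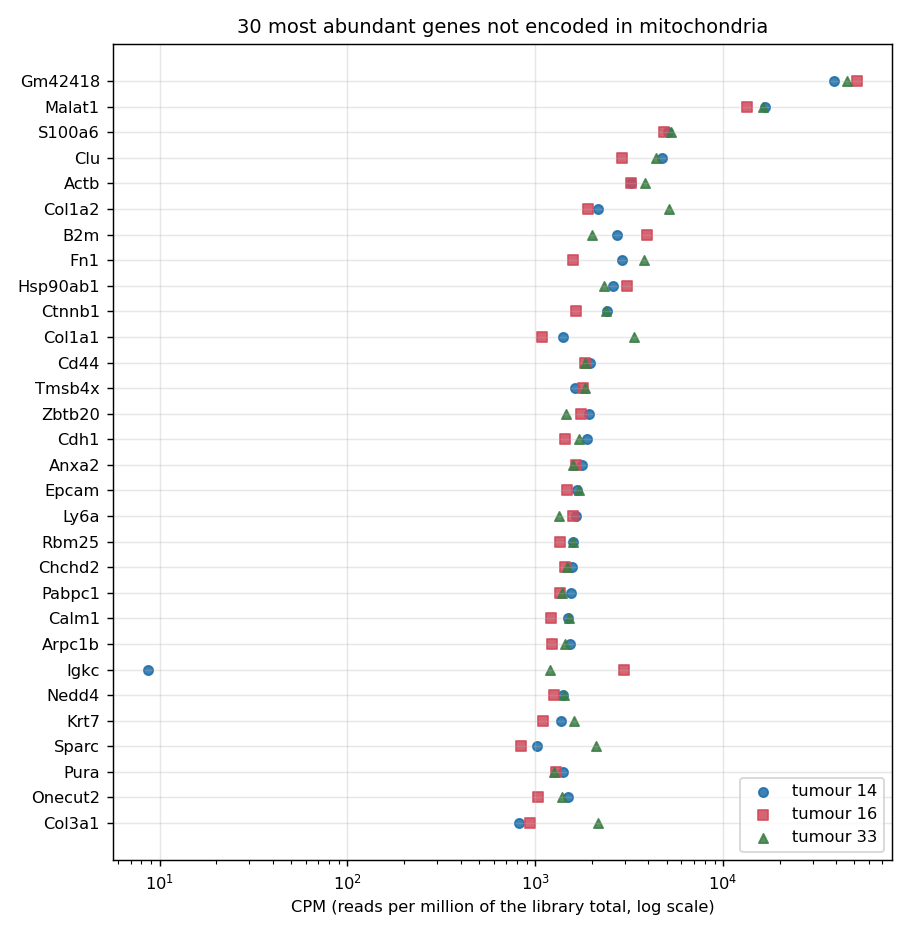
The 30 most abundant genes outside the mitochondrial genome, by mean level, with the level in CPM (log axis) of each of the 3 tumours. Most genes lie within a narrow band; Igkc spans 8.68 to 2967 CPM, and the collagen genes, Fn1 and Sparc lie farthest right in tumour 33.

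Of these 30 genes Igkc, the constant part of the immunoglobulin κ light chain, was the least even, with 8.68, 2967 and 1192 CPM. Tumour 14 had nearly none of it. The levels are CPM without division by length, because a 3′ library takes about 1 fragment end per transcript. Dividing by exon length kept 58 of the 100 top genes and put the share of the top 100 at 48.3%.

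A few genes that every cell uses were listed low. The cytoskeletal actin Actg1 stood at 4.22, 4.52 and 5.34 CPM, the glycolytic enzyme Gapdh at 37.5, 46.4 and 37.9 CPM, and the ribosomal protein gene Rpl24 at or below 0.951 CPM. Mitochondrial mt-Co2, mt-Co3, mt-Atp6, mt-Atp8 and mt-Nd4l were listed at 0 in all 3 tumours. These genes have near-identical copies or overlap a neighbour, how shared reads were counted is not given in the sources used here, and their levels are uncertain. The ranks above are therefore those of counted reads, and genes of this kind could stand higher. The low-listed genes were chosen after their values were seen.

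The edited genes were still read. Prkci, which encodes PKCλ/ι, had 57.5, 69.2 and 48.8 CPM. Prkcz, which encodes PKCζ, had 3.75, 2.38 and 1.86 CPM, from 16, 10 and 8 reads. Small edits made by guides can leave a transcript in place and the reads come from its 3′ end, so these values check neither the edit nor the labels. Of 8 genes of the Par complex list above 5 CPM 0 were called, near the background for so few genes, and their median ratio was 1.27 against 1.31 for all genes. Cdc42, the small GTPase that activates the complex, had 443, 433 and 482 CPM and Pard3, the scaffold Par3, 184, 173 and 213 CPM.

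Marker genes of 3 compartments were summed to describe composition. Epithelial lists without the squamous one (122 genes) summed to 28862, 24773 and 27610 CPM, 27081 ± 2095 (SD, n = 3). The stromal lists (115 genes) summed to 14672, 12148 and 25162 CPM, 17327 ± 6901. Immune lists (151 genes) summed to 5218, 9719 and 6986 CPM, 7308 ± 2268. The epithelial sum thus varied by 1.17-fold, the stromal one by 2.07-fold with tumour 33 on top, and the immune one by 1.86-fold with tumour 16 on top. Of the 3 sums together the epithelial part was 59.2%, 53.1% and 46.2%, the stromal part 30.1%, 26.1% and 42.1%, and the immune part 10.7%, 20.8% and 11.7%. These are shares of marker RNA and not of cells, and a few abundant genes weigh heavily in them. Without S100a6 and Clu the epithelial sum was 19046, 17035 and 17948 CPM. Without the B and plasma cell list the immune sum varied by 1.28-fold. As mean log2(CPM + 1) of the members the epithelial level was 4.181, 4.145 and 4.023, lowest in tumour 33, whereas its sum was lowest in tumour 16. On that scale the stromal and immune levels kept tumours 33 and 16 on top.

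**Figure D2:**
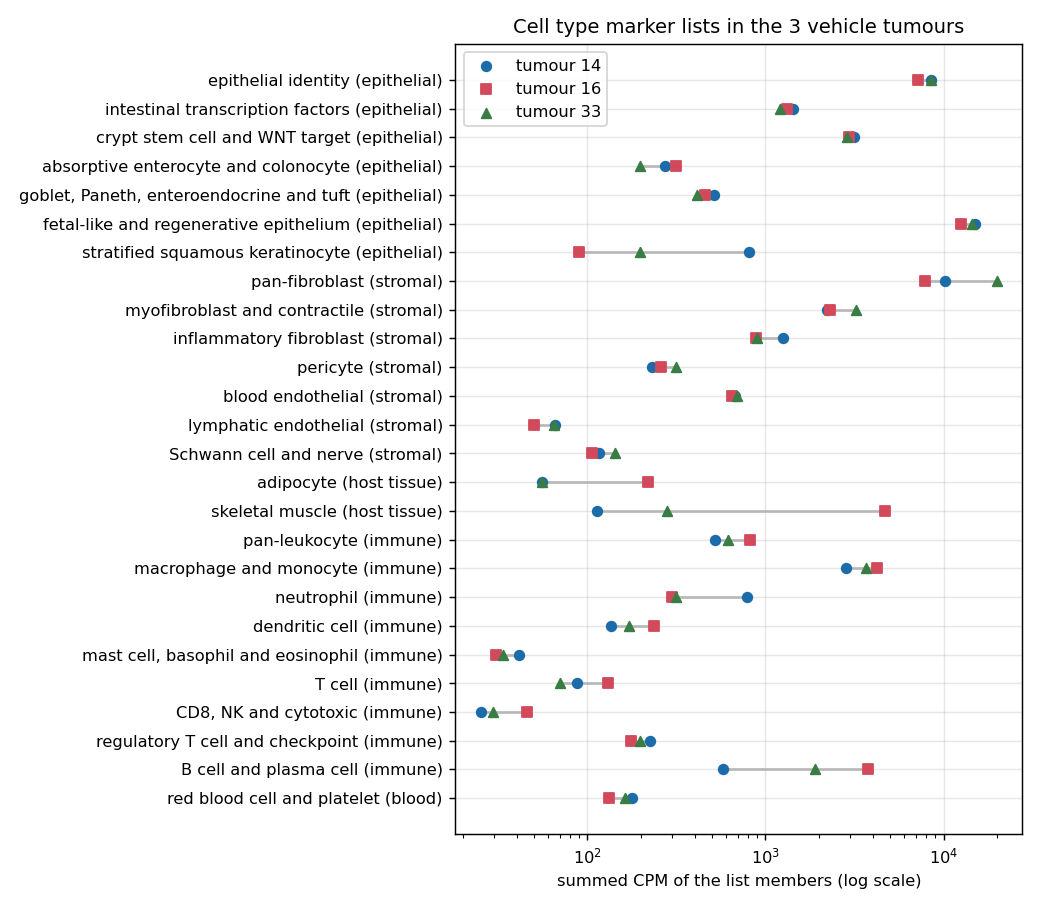
Summed level of each cell type marker list in CPM (log axis), with 1 symbol per tumour and a line from the lowest to the highest. Skeletal muscle spans 113 to 4717 CPM, the B and plasma cell, squamous and neutrophil lists are also wide, and the epithelial identity and endothelial lists are narrow.

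Genes of general epithelial identity were read at high levels in every tumour. All 24 were above a mean of 5 CPM and 0 were called, with a median ratio of 1.28 against 1.31 for all genes. Cdh1, E-cadherin, had 1894, 1443 and 1709 CPM and Epcam 1675, 1476 and 1713 CPM. The simple keratins Krt18 and Krt19 had 770.1, 601 and 832 CPM and 635, 453 and 560.4 CPM, lowest in tumour 16. Grhl2, a transcription factor that maintains epithelial junctions, stood at 56.7, 57.6 and 56.2 CPM. Intestinal members of the list were present too: Cdh17, an intestinal cadherin, had 196, 197 and 275 CPM and Gpa33, an intestinal surface antigen, 228, 192 and 234 CPM.

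Transcription factors of the gut were present in part. Sox9, a factor of crypt progenitors, had 625, 610.1 and 589.9 CPM, and Klf5, of proliferating crypt cells, 299, 299.9 and 275 CPM. Both were level across the tumours. Against this, the master regulators of intestinal identity were at or near the floor: Cdx2 had 1.17, 2.38 and 0.697 CPM, and Cdx1 and Isx had no read in any tumour. Hnf4a, another regulator of enterocytes, reached 8.44, 5.47 and 4.41 CPM. Of the 16 members 8 passed 5 CPM, and 0 of them were called.

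WNT target and crypt genes were expressed at moderate levels. Lgr5, the receptor that marks crypt stem cells, had 56.3, 63.03 and 37.6 CPM, Axin2, a feedback inhibitor of WNT signalling, 149, 157 and 128 CPM, and Notum, a secreted WNT inhibitor, 75.04, 76.3 and 45.1 CPM. All of these were lowest in tumour 33 and differed by at most 1.69-fold. Of 17 members above 5 CPM 3 were called: Nkd1, an inhibitor of the same pathway, was low in tumour 16 with 49.2, 18.8 and 46.7 CPM, while Ascl2, a factor of stem cells, was high there with 6.57, 18.1 and 5.58 CPM, as was Prom1 with 10.3, 15.2 and 6.97 CPM. Olfm4, a stem cell gene of the human and mouse small intestine, had no read.

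Mature cell types of the gut lining were nearly unread. Of 22 absorptive genes only 4 passed 5 CPM: Vil1, villin, with 91.9, 138 and 92.9 CPM, Ceacam1 with 144, 149.8 and 55.1 CPM, Krt20 with 15.7, 4.28 and 28.6 CPM and Car2 with 10.3, 6.66 and 15.1 CPM. The brush-border and transport genes Fabp1, Alpi, Sis, Aqp8, Car1, Apoa4 and Muc13 had no read in any tumour. Among 20 genes of secretory cells Mmp7, matrilysin of Paneth cells and also of many tumours, made up 87.9% of the sum with 473, 392 and 357 CPM. Muc2, the main mucin of goblet cells, had at most 0.697 CPM, and Tff3, Atoh1 and Neurog3 had none.

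Genes of fetal-like and regenerating epithelium were the most abundant epithelial list, with sums of 14951, 12516 and 14450.1 CPM. After S100a6 and Clu came Ly6a, the surface antigen Sca-1, with 1641, 1585 and 1333 CPM. Anxa1, an anti-inflammatory annexin, had 953, 1017 and 838 CPM. These differed little between tumours. Of 16 members above 5 CPM 5 were called. Lamb3, a chain of laminin-332, an anchor of epithelia to the basement membrane, was low in tumour 16 with 187, 70.2 and 243 CPM. Ly6d, a surface antigen of the same family as Ly6a, was highest there with 254, 406 and 145 CPM. Ly6a is also expressed by vessels and leukocytes and S100a6 by fibroblasts, so the list is not particular to epithelium.

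Squamous genes set tumour 14 apart. Of 22 members 16 passed 5 CPM, all 16 were called and 15 were highest in tumour 14, where the sum was 807 CPM against 89.2 in tumour 16 and 198 in tumour 33. Krt14, a keratin of basal squamous cells, had 146, 3.57 and 13.5 CPM, and Krt6a, a keratin of activated and hyperproliferative epidermis, 138, 3.33 and 15.1 CPM. Krt6b, its close copy, had 300.2, 0 and 1.16 CPM, and reads may have been divided between the pair. Krt5, the partner of Krt14, had 33.1, 0 and 0.232 CPM, and Krtdap, of differentiating keratinocytes, 54.4, 0 and 0 CPM. The exception was Ivl, involucrin of the cornified envelope, highest in tumour 33 with 64.7, 21.4 and 103 CPM. Several of these genes reached a mean of 5 CPM only through tumour 14 and so had to be called. With no level counted below 3 reads, the median ratio was 25.6. Epidermal Lor and Krt10 had 13.6, 4.04 and 4.18 CPM and 39.9, 8.32 and 5.81 CPM. Whether the squamous RNA came from grafted cells or from overlying skin was not tested.

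Fibroblast genes formed the largest stromal list and were highest in tumour 33. Their sums were 10157, 7915 and 19889 CPM. Of 23 members above 5 CPM 17 were called and 16 of those were highest in tumour 33, and the median ratio was 2.49. The chains of collagen I had 1396, 1081 and 3345 CPM for Col1a1 and 2145, 1915 and 5163 CPM for Col1a2. Col3a1, which forms thin fibrils with them, had 823, 935 and 2149 CPM, and Sparc, a matrix protein that binds collagen, 1024, 844 and 2099.8 CPM. In each of these 4 genes tumour 33 had over 2 times the level of both others, which lay close together. Postn, periostin of activated fibroblasts, ran the same way with 439, 274 and 819.9 CPM, and so did the surface protease Fap with 13.8, 10.5 and 27.6 CPM. Some members were flatter: Pdgfra, a growth factor receptor, had 26.97, 17.1 and 31.8 CPM, and the matrix proteins Pcolce and Dcn had 94.97, 100.1 and 107 CPM and 98.5, 153 and 147 CPM. Dpt, dermatopontin of resting dermal fibroblasts, was the 1 called gene of the list with tumour 16 on top, with 7.50, 33.5 and 15.3 CPM.

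Most of the collagen family was likewise highest in tumour 33. The family shares members with the fibroblast list, among them Col1a1, Col1a2 and Col3a1, so its counts are not separate from those above. Chains of collagen took 0.625%, 0.533% and 1.41% of all reads, and of 22 chains above 5 CPM 19 were called, 18 with tumour 33 on top. Col8a1, a short-chain collagen, had 285, 229 and 688 CPM, Col12a1, which decorates fibrils, 199.8, 74.9 and 328 CPM, and Col7a1, of anchoring fibrils, 49.7, 9.99 and 85.3 CPM. The basement membrane chains Col4a1 and Col4a2 also peaked there but were not called, with 171, 159.8 and 251 CPM and 121, 104 and 161 CPM. Col14a1, a chain of fibril surfaces, was highest in tumour 16 with 24.4, 57.1 and 30.9 CPM. 

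Several matrix and fibroblast genes outside the list were also highest in tumour 33. Among the genes with the largest lead over both other tumours at 20 CPM or more were Cthrc1, a secreted protein of activated fibroblasts, with 18.3, 25.9 and 88.98 CPM, Aspn, a small matrix proteoglycan, with 23.4, 28.1 and 81.1 CPM, and Sfrp2, a secreted modulator of WNT signalling, with 21.8, 16.2 and 54.8 CPM. Col27a1, a fibrillar collagen chain, had 32.4, 15.9 and 82.7 CPM. In these 4 tumour 33 had over 2 times the level of both others. Grem1, a BMP antagonist of stromal cells, behaved otherwise, with 184, 9.51 and 68.1 CPM.

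Contractile genes were divided. Of 15 above 5 CPM 9 were called, 6 with tumour 33 and 3 with tumour 16 on top. Acta2, smooth muscle actin of myofibroblasts, had 85.6, 87.3 and 196 CPM and Tagln 56.7, 47.3 and 102 CPM. Both were about level in tumours 14 and 16. Des and Tpm2, which skeletal muscle also expresses, had 3.05, 53.99 and 6.74 CPM and 38.9, 281 and 67.6 CPM and were highest in tumour 16, as were the skeletal muscle genes described further on; their part in this was not tested. Without Des, Tpm1 and Tpm2 the stromal sum was 13598, 10881 and 23635 CPM.

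Mesenchymal genes followed the fibroblast genes. Of 20 members of the epithelial-mesenchymal transition list above 5 CPM 13 were called, 12 with tumour 33 on top. Tnc, tenascin C, had 555, 498 and 1095 CPM, and the factors Prrx1 and Twist1 had 95.4, 55.9 and 146 CPM and 55.1, 39.96 and 82.9 CPM. Twist2 stood out by its near absence in tumour 16, with 20.2, 0.476 and 21.1 CPM. Vim, vimentin, which leukocytes share, was more even with 348, 392 and 489 CPM. The list shares Fn1 and Sparc with the fibroblast list.

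Genes that make, break and bind hyaluronan, the polysaccharide that the study's enzyme targets, were measured at baseline. Has2, the main synthase of fibroblasts, had 12.2, 12.8 and 19.7 CPM, Has1 had at most 0.238 CPM and Has3 3.52, 1.19 and 2.32 CPM. The hyaluronan-degrading surface protein Cemip2 had 598, 393 and 742 CPM, and the hyaluronidase Hyal2 had 60.5, 79.2 and 60.9 CPM. Vcan, versican, a proteoglycan that binds hyaluronan, had 67.8, 44.7 and 112 CPM. Itih5, from the family of inter-α-inhibitor heavy chains, had 8.21, 14.3 and 44.4 CPM. Has2, Cemip2, Vcan and Itih5 were highest in tumour 33, and Hyal2 in tumour 16. Of 17 members above 5 CPM 8 were highest in tumour 16, 7 in tumour 33 and 2 in tumour 14, and the 6 called divided into 2, 3 and 1 in that sequence.

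Vessel genes were level in sum. Blood endothelial genes summed to 677, 653 and 694 CPM, 675 ± 20.7 (SD, n = 3), with 2 of 18 members called. Flt1 alone made up 32.1% of that sum. By members, 3, 5 and 10 of the 18 were highest in tumours 14, 16 and 33, where 25.3%, 41.0% and 33.8% of all genes were. The mean log2(CPM + 1) of all 24 members was 3.78, 3.94 and 4.06. Pecam1, the adhesion molecule CD31, had 30.95, 39.01 and 44.8 CPM, Cdh5, VE-cadherin, 21.1, 18.8 and 27.2 CPM, and the VEGF receptor Kdr 33.3, 41.1 and 42.7 CPM. None of these was called. Pericyte genes, 0 of 7 called, were all highest in tumour 33: Rgs5, a regulator of G protein signalling, had 68.2, 92.3 and 95.7 CPM. Of the lymphatic list only Pdpn, which fibroblasts and epithelium share, passed 5 CPM, while Prox1 and Lyve1 stayed at or below 8.56 CPM.

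Skeletal muscle RNA was a feature of tumour 16. All 20 members passed 5 CPM, all 20 were called and all were highest there, and their sum was 113, 4717 and 279 CPM, a ratio of 41.7. Ttn, the giant sarcomere protein titin, had 31.4, 1284 and 65.5 CPM. Myh4, the heavy chain of fast glycolytic fibres, had 1.17, 573 and 30.9 CPM, and Acta1, the actin of the sarcomere, 3.28, 534 and 23.2 CPM. Tumour 33 was above tumour 14 in each of these but far below tumour 16. Ckm, the muscle creatine kinase, had 0.704, 101 and 7.43 CPM. With no level counted below 3 reads the median ratio was 55.1. Several of the genes reached a mean of 5 CPM only through tumour 16 and so had to be called. The muscle genes held 0.472% of the reads of tumour 16, against 0.0113% and 0.0279%. Genes of fat differed in part: Car3, an enzyme of fat and slow muscle, had 1.17, 108 and 2.09 CPM and Lpl, lipoprotein lipase, 25.3, 68.02 and 22.8 CPM, but Adipoq, the defining adipokine, had at most 0.714 CPM, and 4 of 13 members, among them Lep, had no read.

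Immune genes were led by those of macrophages. Their 25 genes summed to 2823, 4222 and 3672 CPM, and of 24 above 5 CPM 7 were called, all with tumour 16 on top. Apoe, a lipid carrier made by macrophages and other cells, had 691, 951 and 1051 CPM. Lyz2, lysozyme, had 295, 463 and 375 CPM, and C1qa, of the complement start, 89.8, 181 and 151 CPM. Tumour 14 was lowest in all 3. Markers of recruited monocytes were the widest: the chemokine receptor Ccr2 had 36.6, 188 and 77.1 CPM and Ly6c2 29.3, 137 and 25.6 CPM. Adgre1, the F4/80 antigen of mature macrophages, had 18.5, 42.3 and 24.4 CPM. Arg1, arginase of alternatively activated macrophages, went the other way with 428, 284 and 321 CPM and was not called. Pan-leukocyte genes matched this order, with 6 of 12 called, all highest in tumour 16, and Ptprc, the CD45 antigen, at 54.9, 103 and 65.8 CPM.

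**Figure D3:**
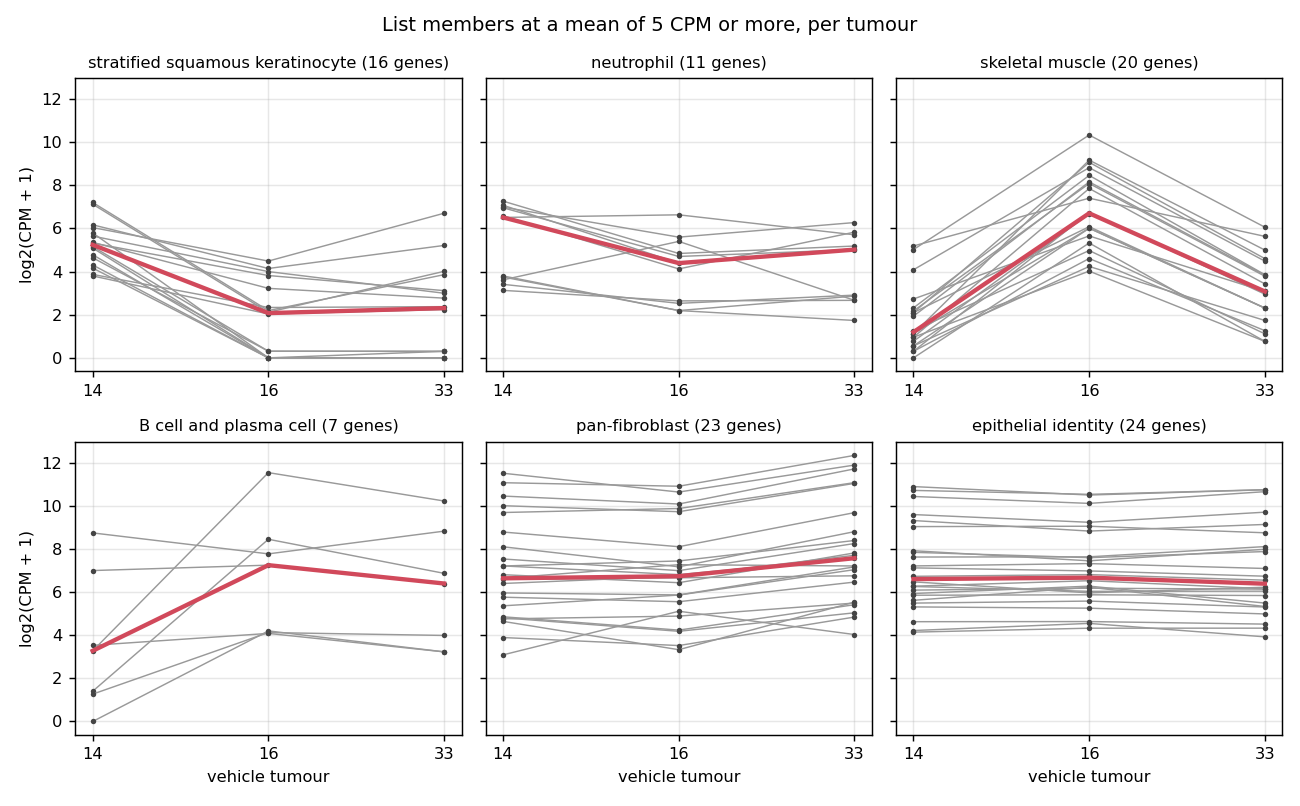
Members of 6 lists at a mean of 5 CPM or more, as log2(CPM + 1) in each tumour; a grey line joins the 3 values of 1 gene and the red line joins the medians. Squamous and neutrophil genes peak in tumour 14, muscle genes in tumour 16, fibroblast genes in tumour 33, and the epithelial identity lines are flat.

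Neutrophil-list genes peaked in tumour 14. Of 11 above 5 CPM 9 were called, 8 with tumour 14 on top, and the median ratio was 4.93. S100a8 and S100a9, the subunits of calprotectin, had 153, 27.6 and 35.3 CPM and 123, 24.97 and 31.4 CPM. Il1b, interleukin 1β, had 126, 47.3 and 76.2 CPM, and Mmp9, gelatinase B, 134, 19.98 and 32.3 CPM. Tumours 16 and 33 were close to each other in calprotectin. The defining receptor Csf3r did not share this, with 2.58, 2.85 and 3.02 CPM, nor did Ly6g, with at most 0.938 CPM, while Cxcr2, the receptor for the chemokines below, had 9.61, 4.76 and 6.51 CPM. Squamous epithelium also makes calprotectin and Lcn2, and squamous genes were highest in the same tumour; their part in the neutrophil list was not tested. Retnlg, a neutrophil resistin, was highest in tumour 16 with 11.3, 41.1 and 5.34 CPM.

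The ligands that recruit neutrophils were highest in tumour 14 as well. Of 12 CXC chemokine genes above 5 CPM 8 were called, 5 with tumour 14 on top. Cxcl5 had 468, 38.5 and 68.8 CPM, Cxcl1 111, 16.6 and 29.5 CPM, Cxcl2 66.1, 17.6 and 21.6 CPM and Cxcl3 56.5, 15.7 and 15.3 CPM. In each of the 4 tumour 14 exceeded both others by more than 2-fold, and those others lay closer together. Their products bind the receptor CXCR2, and the genes lie in 1 cluster on chromosome 5. Since Cxcl1, Cxcl2 and Cxcl3 moved together, the 120 bases before their RefSeq starts (GRCm38.p6, plus strand) are shown, with matches to the binding motif of NF-κB (GGGA, any 2 bases, then TTCC) in capitals:
Cxcl1 (chr5:90891125-90891244): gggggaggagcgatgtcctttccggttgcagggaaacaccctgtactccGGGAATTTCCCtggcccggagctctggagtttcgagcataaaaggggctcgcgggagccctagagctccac
Cxcl2 (chr5:90903779-90903898): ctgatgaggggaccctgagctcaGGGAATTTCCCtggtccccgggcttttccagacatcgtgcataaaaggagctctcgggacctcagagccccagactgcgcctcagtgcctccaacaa
Cxcl3 (chr5:90785981-90786100): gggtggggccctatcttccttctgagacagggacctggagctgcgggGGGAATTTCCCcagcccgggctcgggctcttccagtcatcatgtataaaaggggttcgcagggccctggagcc
The match starts 71, 97 and 73 bases before the start of Cxcl1, Cxcl2 and Cxcl3. In each of them both strands match, offset by 1 base, so 11 bases are in capitals. Of the 14 CXC genes 11 had a promoter window in the RefSeq set used, while Cxcl5, Cxcl16 and Cxcl17 had none and were not searched. Of those windows 4 held the motif, the other one being that of Cxcl10. Among all 32851 mouse promoter windows, each from 250 bases before to 50 after the start, 1.47% held it on either strand. A match describes letters only; Cxcl10, which holds it too, had 11.5, 21.4 and 11.4 CPM and was not highest in tumour 14. Nfkbia, a feedback inhibitor and target of NF-κB, was chosen after its values were seen and had 668, 341 and 353 CPM. B2m, whose promoter also holds the NF-κB motif, was highest in tumour 16, with 2720.4, 3956 and 2009 CPM. Whether NF-κB had a part in any of these levels was not tested.

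Several proteases that cut matrix shared the peak of tumour 14. Of 12 matrix metalloproteinase genes above 5 CPM 8 were called, 5 with tumour 14 on top. The other 3, Mmp14, Mmp2 and Mmp11, were highest in tumour 33. Mmp13, collagenase 3, had 690.4, 13.3 and 96.9 CPM. Mmp3 and Mmp10, the stromelysins, had 200.5, 23.8 and 73.9 CPM and 77.6, 0.951 and 20.9 CPM. Tumour 16 was the lowest in all 3. The membrane-bound Mmp14 followed the fibroblast genes with 422, 277 and 575 CPM. Saa3, an acute-phase protein of inflamed stroma and epithelium, had 61.7, 7.85 and 16.7 CPM, again highest in tumour 14. In the inflammatory fibroblast list, which holds Saa3, Mmp3, Mmp10 and Cxcl1, 9 of 14 members above 5 CPM were called, 4 with tumour 14 and 4 with tumour 16 on top. Those of tumour 16 were C3, of complement, with 26.7, 70.4 and 26.3 CPM, and the chemokines Cxcl12, Ccl2 and Ccl7. Il6 stayed near the floor with 2.81, 0.238 and 1.39 CPM.

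Chemokines of the CC family peaked elsewhere. Of 12 above 5 CPM 10 were called and 8 of those were highest in tumour 16. Ccl6 had 186, 294 and 136 CPM, and Ccl8, a ligand for monocytes and T cells, 24.6, 104 and 46.2 CPM. Ccl3 and Ccl4, from activated leukocytes, were highest in tumour 14 with 12.2, 4.28 and 3.95 CPM and 9.85, 6.90 and 3.49 CPM.

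Defining genes of the T and NK lineages were near the detection limit. Cd3e, a chain of the T cell receptor complex, had 0.704, 1.43 and 0.465 CPM, Cd8a, the co-receptor of cytotoxic cells, 1.17, 1.43 and 0.929 CPM, and Cd4 0.938, 3.57 and 2.09 CPM. These values rest on at most 15 reads each, so the order of the tumours is not resolved in these genes. The whole T cell list summed to 87.2, 131 and 70.2 CPM. All 4 of its members above 5 CPM were highest in tumour 16, where 41.0% of all genes were, and 2 were called. The list of CD8, NK and cytotoxic genes summed to 25.3, 45.9 and 29.5 CPM. Of its 2 members above 5 CPM 1 was highest in tumour 16 and 1 in tumour 33. Foxp3, which defines regulatory T cells, had at most 1.90 CPM, and Ncr1, of NK cells, at most 0.476 CPM. Bcl11b, the largest member of the T cell list, is also made by epithelial and skin cells and had 43.1, 48.5 and 30.9 CPM. Cd274, the checkpoint ligand PD-L1, which tumour and myeloid cells express, had 47.6, 31.4 and 33.7 CPM.

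A group of granzymes was highest in tumour 33. Gzmc, Gzmd and Gzme, serine proteases of cytotoxic cells whose genes are close copies on chromosome 14, had 12.2, 5.23 and 29.5 CPM, 16.2, 12.4 and 63.9 CPM and 27.2, 11.7 and 77.4 CPM. All 3 were called and highest in tumour 33. Gzmb had at most 1.43 CPM, Gzma at most 1.90 CPM and the pore-forming protein Prf1 at most 0.238 CPM. Reads may have been divided among the copies. 

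Antibody genes separated tumour 14 from the others. The immunoglobulin constant segments had 105, 23432 and 9358 reads, 0.00246%, 0.557% and 0.217% of each library, and 6 of 6 above 5 CPM were called. Of these Ighg1, Ighg2b, Ighg2c and Ighm reached that mean only through tumours 16 and 33 and so had to be called. Igkc is given above; Igha, the heavy chain of IgA, had 10.6, 764 and 227 CPM. The IgG chains differed in order: Ighg2b had 0.704, 779 and 119.7 CPM and Ighg2c 0.469, 817 and 73.4 CPM, both highest in tumour 16, while Ighg1 was highest in tumour 33 with 1.64, 209 and 540.2 CPM. Near-identical segments of IgG subclasses make their separate levels uncertain. Jchain, which joins IgA and IgM, had 1.64, 348 and 116 CPM, and Mzb1, a chaperone of plasma cells, 0, 17.4 and 8.36 CPM. Pou2af1, a co-activator of B cells, had 0, 9.75 and 5.11 CPM. In all of these tumour 14 was at or near 0. Ms4a1, the CD20 antigen of B cells before the plasma cell stage, was near the floor in every tumour, with at most 1.66 CPM. Sdc1, syndecan 1, which epithelium also expresses, ran otherwise with 427, 217 and 452 CPM. Without the B and plasma cell list the immune sum was 4641, 5961 and 5101 CPM, a ratio of 1.28.

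Remaining blood cells contributed little. Hbb-bs, a β-globin, had 64.5, 61.1 and 62.96 CPM, even across tumours. Cpa3, a mast cell protease, had 3.52, 4.52 and 1.16 CPM, and Flt3, of dendritic cells, 1.17, 1.90 and 0.697 CPM. Clec10a, a lectin of macrophages and dendritic cells, was the widest of the dendritic list with 5.39, 33.5 and 8.13 CPM, highest in tumour 16.

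Most genes of the interferon-γ and MHC list were lowest in tumour 33, but the class II genes H2-Ab1 and Cd74 were not. Of 28 members above 5 CPM 12 were called, 9 with tumour 16 and 3 with tumour 14 on top, and 23 of the 28 were lowest in tumour 33, where 33.5% of all genes were lowest. H2-K1, a classical class I heavy chain, had 1014, 1478 and 687 CPM, and B2m, its light chain, 2720.4, 3956 and 2009 CPM. Tap1, the peptide transporter, had 78.6, 135 and 46.7 CPM, and Psmb9, a subunit of the immunoproteasome, 35.4, 72.1 and 20.4 CPM. In each of these tumour 14 lay in the middle. Class II chains, made by professional antigen-presenting cells, were likewise highest in tumour 16, with H2-Ab1 at 290.1, 722 and 352 CPM and Cd74, the invariant chain, at 189.7, 406 and 194 CPM, but were slightly lower in tumour 14 than in tumour 33. Class I genes are close copies of one another, and reads may be shared among them. B2m is a textbook target of interferon, so its promoter is shown, as the 160 bases before the RefSeq start (GRCm38.p6, plus strand), with matches to the interferon-stimulated response element (GAAA, any 2 bases, then GAAA) and to the NF-κB motif in capitals:
B2m (chr2:122147527-122147686): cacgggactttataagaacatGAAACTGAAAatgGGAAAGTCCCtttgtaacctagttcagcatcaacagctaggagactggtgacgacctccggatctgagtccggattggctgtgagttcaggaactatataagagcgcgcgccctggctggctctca
The first match starts 139 and the second, on the minus strand, 126 bases before the start. Of all 32851 windows 3.44% held the interferon motif on either strand. Type I interferon genes overlapped in order: 10 of 25 were called, 7 with tumour 16 and 3 with tumour 14 on top, and 23 of 25 were lowest in tumour 33. Irf7, the amplifier of this response, had 20.4, 22.8 and 7.90 CPM, and Rsad2, the antiviral protein viperin, 74.6, 43.1 and 28.3 CPM.

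Proliferation genes were highest in tumour 16. All 36 cell cycle genes above 5 CPM were highest there, where 41.0% of all genes were highest, and 8 passed 2-fold. Mki67, the Ki-67 antigen, had 163, 259.7 and 119 CPM and Top2a, topoisomerase II of dividing cells, 511, 633 and 395 CPM. Cenpa, the centromeric histone, had 43.4, 93.9 and 36.5 CPM and Ccna2, cyclin A2, 47.8, 106 and 52.97 CPM, while Mcm7, of the replicative helicase, had 72.7, 76.3 and 72.02 CPM and Pcna 45.96, 54.9 and 46 CPM. The exons of Ube2c, 1 of the 8, overlap those of the muscle gene Tnnc2 on the other strand, and whether strand was used in counting is not given in the sources used here. Ribosomal protein genes shared the direction at a smaller scale, with 71 of 78 highest in tumour 16, 72 lowest in tumour 33 and 1 called.

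Hypoxia genes were highest in tumour 14. Of 29 above 5 CPM 23 were highest there, where 25.3% of all genes were, and 8 were called, 7 of them with tumour 14 on top. Vegfa, the angiogenic factor, had 452, 174 and 436 CPM and Adm, adrenomedullin, 55.1, 12.8 and 51.6 CPM. Both were also high in tumour 33 and low in tumour 16. Slc2a1, the glucose transporter GLUT1, had 390.4, 179 and 270.2 CPM, Ndrg1 305, 108 and 181 CPM and Egln3, a hydroxylase that acts on HIF, 394, 222 and 205 CPM. The glycolytic enzymes Ldha and Pkm were not called: Ldha had 395, 361 and 311 CPM and Pkm 377, 304 and 328 CPM.

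Across all genes, the tumours with most in common were 14 and 33. Spearman's correlation of log2(CPM + 1) across the 11128 genes was 0.967 for tumours 14 and 33, 0.942 for 14 and 16 and 0.937 for 16 and 33, as a description, since genes share libraries and are not independent. Genes at least 1 log2 unit apart numbered 315, 598 and 823 in these pairs. The commonest order of the tumours among the 1322 called genes was tumour 33 highest and tumour 16 lowest with 14 between, which held for 435 genes, 32.9%. Orders led by tumour 16 held for 291 genes with tumour 33 lowest and 275 with tumour 14 lowest. Orders led by tumour 14 were fewer, with 145 and 74 genes.

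**Figure D4:**
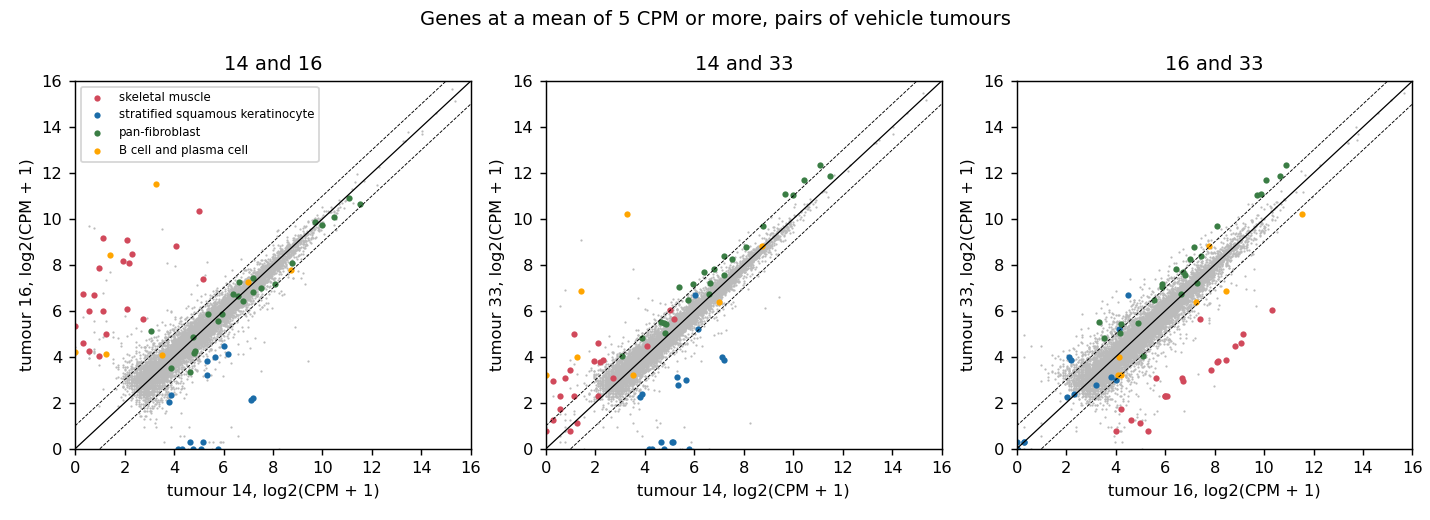
Levels of the 11128 genes at a mean of 5 CPM or more in each pair of tumours, as log2(CPM + 1), with the line of equality, dashed lines 1 log2 unit away and members of 4 lists in colour. Most muscle genes leave the band wherever tumour 16 is plotted, most squamous genes wherever tumour 14 is, and fibroblast genes lie toward tumour 33.

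Tumour 16 was the one that most often stood alone. Genes at least 2-fold above both other tumours, which were themselves within 1.5-fold, numbered 117 in tumour 16, 69 in tumour 33 and 23 in tumour 14. Genes as far below both numbered 152, 55 and 34 in the same sequence. Beyond the muscle genes already named, Trdn, triadin of the calcium release unit, was among the genes with the greatest lead in tumour 16, with 1.41, 159.8 and 8.60 CPM. The genes lowest there included Crabp1, a retinoic acid binding protein, with 58.6, 0.238 and 29.7 CPM. Lowest in tumour 33 were the trefoil factors Tff1 and Tff2, peptides of the gastric mucosa, with 75.7, 38.1 and 13.01 CPM and 48.8, 44 and 14.6 CPM, and Noxo1, an organiser of epithelial NADPH oxidase, with 38.5, 48.05 and 13.01 CPM.

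Spread depended on level. The median coefficient of variation over the 3 tumours was 19.95% for genes of 5 to 20 CPM, 12.2% from 20 to 100 CPM, 9.95% from 100 to 500 CPM and 13.1% above 500 CPM. The expected counting error at these levels was 14.8%, 7.55%, 3.79% and 1.79%. These are expected values and not the spread of 3 drawn values, so they give no share of the spread. Counting error was nearer to the spread in weakly expressed genes than in abundant ones. The median chi-square per degree of freedom of single genes was 1.78 at 5 to 20 CPM and 60.6 above 500 CPM. The share of called genes went from 19.7% at 5 to 20 CPM to 5.96% at 100 to 500 CPM and 7.22% above 500 CPM. The edgeR common biological coefficient of variation was 0.208 over 11863 genes and 0.150 without tumour 16. As the square root of the median DESeq2 dispersion of single genes it was 0.0929. Of the 1322 called genes 194 belonged to 1 or more of the 38 lists and 1128 to none.

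**Figure D5:**
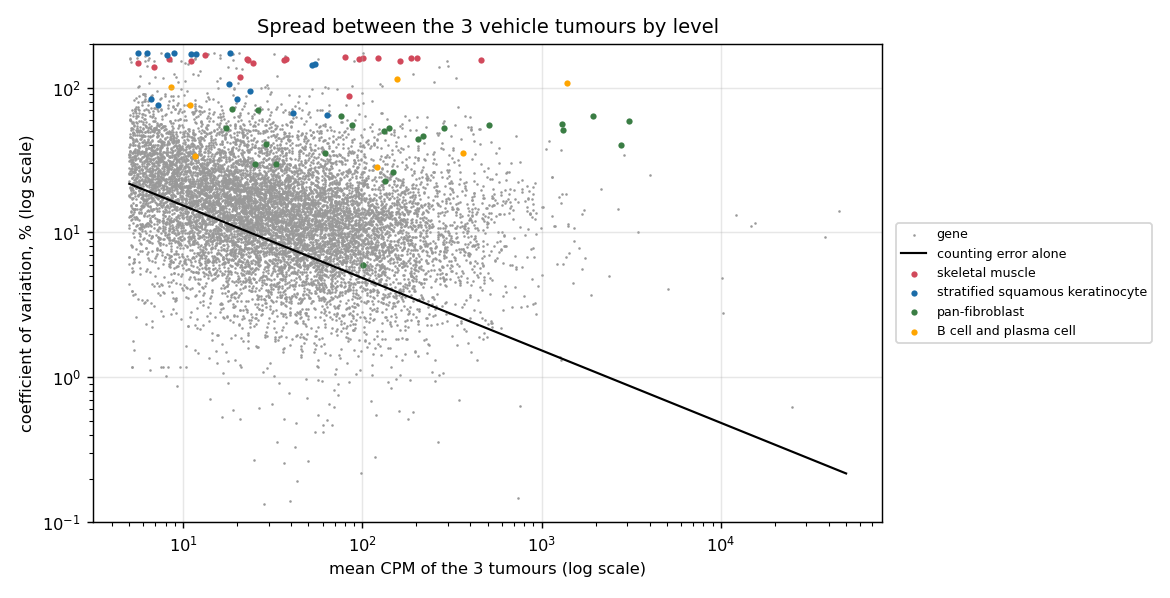
Coefficient of variation over the 3 tumours (%, log axis) against mean level (CPM, log axis) for genes at 5 CPM or more, with the value expected from counting error alone as a line. Most muscle and squamous genes lie near the top, most fibroblast genes in the upper part of the cloud, and the median of genes from 100 to 500 CPM is 9.95%.

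Some genes barely moved. The smallest coefficient of variation at 100 CPM or more belonged to Eif4g2, a translation initiation factor, with 737, 734 and 735 CPM. Next came Iws1, a transcription elongation factor, and Rere, a nuclear co-repressor, with 265, 265 and 263 CPM. Splicing factors Srsf7 and Snrnp200, the methyltransferase Ezh2 with 192, 193 and 191 CPM, the hypoxia-inducible factor Epas1 with 159, 158 and 160.1 CPM, mt-Nd4, Ybx1 and Rer1 completed the 10. They were picked for their small spread, so their evenness is a description.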

How the data were processed

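RNA of the 3 vehicle tumours was measured with the Lexogen QuantSeq 3′ FWD kit from 200 ng of total RNA and single-end reads of 75 nt, per the labels' protocols. The submitters' processing notes name GRCm38 as the build. The sources used here do not give the aligner, counter, normalization tool or use of molecular identifiers. The deposited signal of 47643 gene rows was, judged by its values, each library's reads scaled by a single factor: 100% of values were whole multiples of the smallest one in their column, with a tolerance of 0.01. Reads were recovered by that division and scaled to CPM of the library total, without a gene length because the kit reads 3′ ends. Columns of the treated tumours were not analysed here, and a few genes are not reported here. Symbols and coordinates come from GENCODE M21 for 47224 identifiers, and promoter sequences from RefSeq (GRCm38.p6).

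Members and lists were chosen with earlier results of these data known. The 38 lists held 825 genes. A single group allows no test, so the count test makes no call here; edgeR 4.0.16 gave only the common dispersion (R 4.3.3, intercept-only design, TMM scaling, filterByExpr), checked on simulated counts, and DESeq2 1.42.0 served as an alternative. The rest was computed in Python 3.11.15. Named genes were Prkci and Prkcz; the 30 most abundant genes not encoded in mitochondria; per list the 4 of highest mean and the 2 of widest ratio at 5 CPM or more; per tumour the 10 genes with the largest lead and the 5 with the largest deficit at 20 CPM or more, without gene models, pseudogenes and antigen receptor segments; the 10 of smallest coefficient of variation at 100 CPM or more; and a set of defining markers. Of the 321 genes tabulated for naming 67 have an antisense gene and 29 a same-strand gene across their exons, and the strand setting of the counting is not given in the sources used here. Alternatives changed the scaling, filter, fold, pseudocount, members or tumours used.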

Additional observations from a re-analysis of the deposited data

How the results depend on the processing

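No paired analysis was possible because the vehicle tumours form a single group with no replicate number shared with another group and no contrast. Under 5 other scalings (TMM, DESeq2 size factors, the authors' size factors, totals without mitochondrial genes, totals without muscle, fat, squamous and red blood cell genes) the count of called genes was 1314 to 1354 and the highest tumour of each of the 38 list sums stayed the same. The lowest tumour changed under 1 scaling each for the inflammatory fibroblast, blood endothelial and adipocyte lists. Under the authors' scaling 199, 649 and 506 genes were called with tumours 14, 16 and 33 on top, against 219, 566 and 537. All scalings had about the same overall level, so a mean over the tumours could hardly move. The mean sums of the 38 lists moved by at most 1.022-fold in these 190 alternatives. Of 114 that leave out a tumour 5 moved a sum over 1.5-fold: squamous from 364.8 to 143.5 CPM and neutrophil from 466 to 307 CPM without tumour 14, and without tumour 16 skeletal muscle from 1703 to 195.8 CPM, adipocyte from 110.1 to 55.6 CPM, and B and plasma cell from 2074 to 1231 CPM.

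Definitions moved the counts more. Called genes numbered 3244 with a filter at 1 CPM, 537 at 20 CPM, 9748 with no filter beyond 1 read, 3274 at 1.5-fold and 462 at 3-fold. They were 401 without tumour 16, 720 without tumour 33 and 1021 without tumour 14, a range of 401 to 1021, with 1 tumour fewer in each. The common biological coefficient of variation was 0.262 with no filter and 0.0929 as the square root of the median DESeq2 dispersion. It was 0.150 to 0.247 with each tumour left out, the lowest without tumour 16. Lists whose mean level spanned at least 1 log2 unit numbered 5, 10 with a pseudocount of 0.1 CPM, and 2 to 4 with a tumour left out (2 without tumour 14, 3 without tumour 16). The share of the 100 most abundant genes was 20.3% without mitochondrial genes and 48.3% per exon length. The counted mitochondrial share was 6.09% without its ribosomal and transfer RNAs. As mean log2(CPM + 1), another scale, the epithelial, stromal and immune levels were 4.12, 4.36 and 3.03, and the epithelial sum was 18010 CPM without S100a6 and Clu. Removing the B and plasma cell list, or those 2 genes, was decided after seeing the data. The cause of these shifts was not tested beyond the change each alternative makes. Levels under about 5 CPM are limited by depth.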

Other observations

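Some genes of mucosal surfaces were lowest in tumour 33. Pigr, the receptor that carries IgA and IgM across epithelium, had 287, 619 and 125 CPM. Vsig1, a junction protein of the stomach, had 22.3, 44.2 and 9.06 CPM, and the membrane mucin Muc1 134, 174 and 93.9 CPM. Each was highest in tumour 16, the tumour with most immunoglobulin RNA, while tumour 14, with the least, lay between the others. Ctse, a protease of gastric epithelium, ran the other way with 209.9, 94.7 and 381 CPM, and the gastric mucin Muc5ac had at most 0.469 CPM. Of 6 claudins above 5 CPM 0 were called, near the 11.9% background for so few genes, and their median ratio was 1.32 against 1.31 for all genes. Cldn2, which forms a paracellular cation pore, had 872, 1009 and 782 CPM. These genes and families were chosen after their values were seen.

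Of 21 immediate early and heat shock genes above 5 CPM 6 were called, 4 with tumour 14 on top, and Ier3, an early response gene, had 589.8, 198 and 459.8 CPM. Of 21 genes of the unfolded protein and amino acid response 4 were called. Hspa5, the chaperone BiP, had 891, 959.7 and 734 CPM, whereas Slc7a11, the cystine transporter, had 149, 292 and 75.7 CPM. YAP target genes had 3 of 21 members called, 14.3% and near the 11.9% background. Their median ratio was 1.36 against 1.31 for all genes. The 3 called were highest in tumour 33, and Ccn2, a matrix-associated target, had 782, 573 and 787 CPM.

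Transcripts of 3 colorectal tumour suppressor genes were not called. Apc had 220.2, 198 and 219 CPM, Smad4 154, 138 and 160.3 CPM and Trp53 6.10, 8.56 and 6.04 CPM. Reads of 3′ ends show no allele of these genes. The Y-linked gene Ddx3y had 49.01, 97.99 and 70.4 CPM and Xist, of the inactive X chromosome, at most 0.476 CPM, and grafted and host cells cannot be told apart in either.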
